A study of Gallus gallus with 12 samples.

Results

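The 57 protein coding genes described here had their highest level in E4.5-Ant, the anterior urogenital tissue of the chicken embryo at embryonic day (E) 4.5, in which the Müllerian duct begins to form. They were chosen from 17485 protein coding genes by their level in CPM, a gene's count scaled to the sum of all protein coding counts of its library. A gene was taken when its mean in E4.5-Ant was at least 5 CPM and at least 2 times the mean of each of the other 3 tissues, with E4.5-Ant library 2 left out of the mean. The 57 genes were 0.326% of the protein coding genes and 0.502% of the 11364 genes with a mean of at least 5 CPM in E4.5-Ant. Because these levels chose the genes, their height in E4.5-Ant over the other tissues is given as a description and without a test.

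RNA came from Hy-Line Brown chicken embryos, with 3 libraries of pooled tissue for each of 4 tissues and both sexes mixed. E4.5-Ant was the front part of the paired urogenital system at Hamburger and Hamilton stage (HH) 25, with the anterior mesonephros, some midline mesentery and the Müllerian ridge, and E4.5-Post was the remaining posterior part of the same 15 embryos, without the ridge, each library pooling 5 embryos. The labels and the methods of the study give different extents for the anterior part. The E5.5 duct (HH28, pools of 3 embryos) and the E6.5 duct (HH30, pools of 4 embryos) were Müllerian ducts freed of kidney tissue, so that epithelia and duct mesenchyme were sequenced together. In such tissue, more cells of a type and more RNA per cell cannot be told apart. Among the samples titled E5.5 duct, 1 has "posterior kidney" entered as its cell type, and the tables do not say which library it is.

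The Müllerian duct, the forerunner of the oviduct, arises where coelomic epithelium on the surface of the anterior mesonephros thickens and folds inwards, and then extends backwards along the Wolffian duct. Several of the 57 genes encode parts of the contractile machinery of smooth muscle. In that tissue, calcium entering the cell activates myosin light chain kinase, phosphorylated myosin then pulls on filaments of smooth muscle actins, and membrane receptors, such as those for acetylcholine, together with cation and potassium channels set the calcium level.

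Between 24235353 and 31373783 counts fell on genes in a library. E4.5-Ant library 2 stood apart, with 42.1% of its counts on rRNA genes against 0.199% to 1.95% in the other 11 libraries, and it was also raised at long genes, as given below. Values of a tissue are listed in the order of its libraries 1, 2 and 3, so that the middle value of E4.5-Ant is the library left out of the means. Together the 57 genes made up 3617, 5528 and 3132 CPM in E4.5-Ant, 914 to 934 CPM in E4.5-Post, 1027 to 1052 CPM in E5.5 duct and 802 to 815 CPM in E6.5 duct. In E4.5-Ant libraries 1 and 3 their counts ran from 33 to 17211, with a median of 726.5.

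The E4.5-Ant means of the 57 genes ran from 5.55 to 547 CPM, with a median of 26.7 CPM. Their ratio to the next highest tissue ran from 2.01 to 33.3, with a median of 2.60, and it reached 3 in 23 genes and 5 in 8 genes. The next highest tissue was E5.5 duct for 28 genes, E4.5-Post for 19 and E6.5 duct for 10. The lowest tissue was E6.5 duct for 32 genes, E4.5-Post for 20 and E5.5 duct for 5. Just inside the fold limit lay HEY2 (2.01), CSPG4 (2.07) and VGLL3 (2.07), and just outside it lay CTGF (1.999), GJA5 (1.997) and PDZRN4 (1.99). The E4.5-Ant means of GJA3 (5.55 CPM), A2M (6.04 CPM) and LECT2 (6.17 CPM) were just inside the CPM limit, and that of NKX3-2 (4.43 CPM) was outside it.

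**Figure D1:**
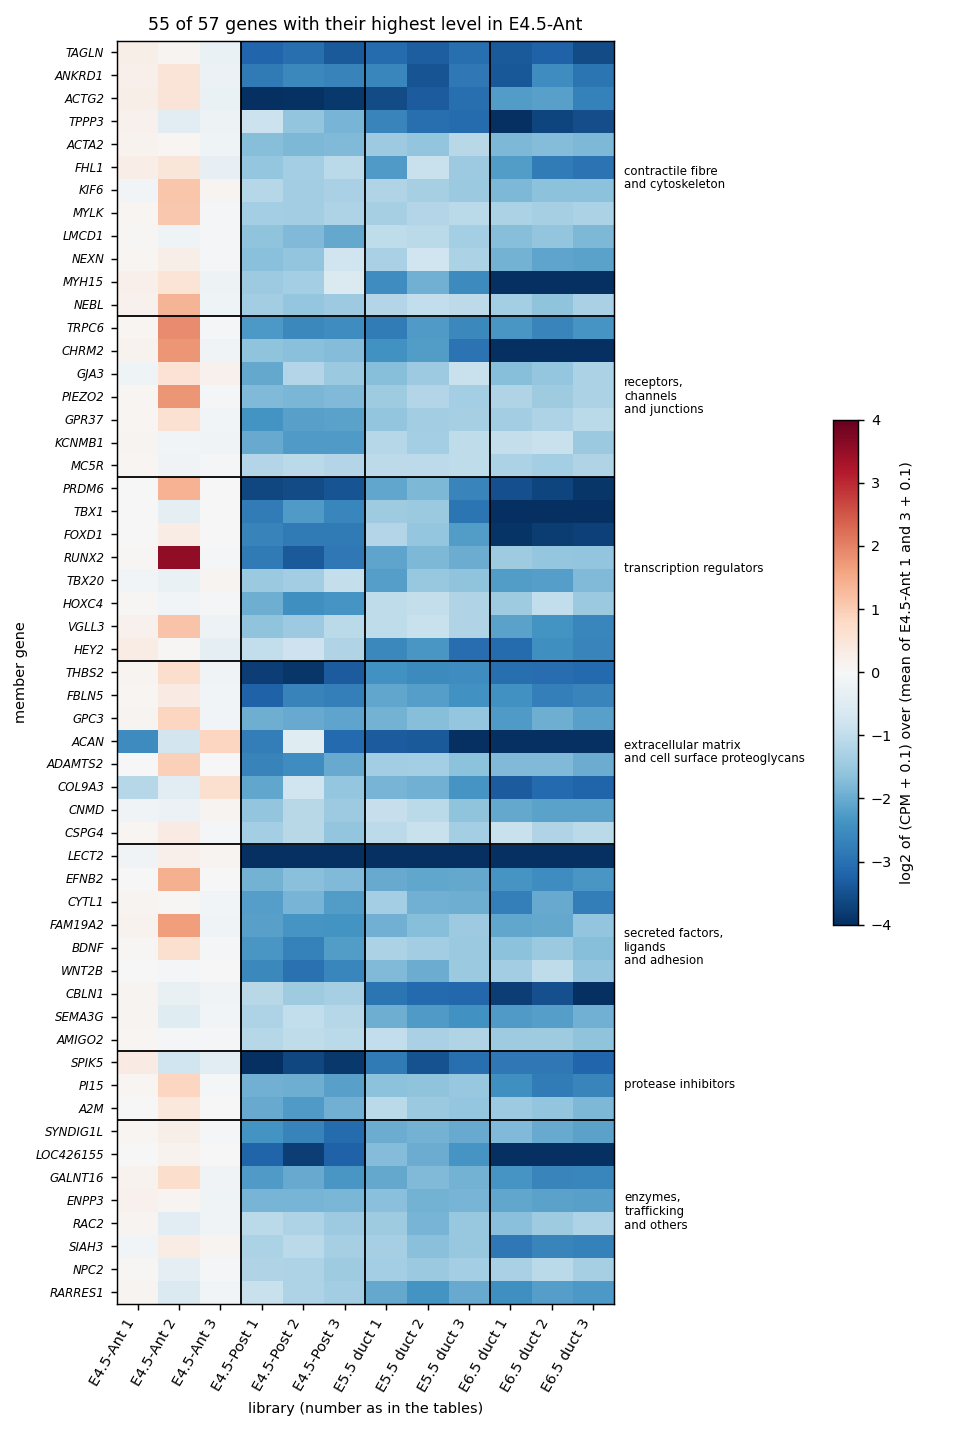
Level of 55 of the 57 genes (rows, grouped by role and ordered by their ratio to the next highest tissue) in each of the 12 libraries (columns), as log2 of the CPM plus 0.1 over the mean of E4.5-Ant libraries 1 and 3 plus 0.1. Colours end at -4 and 4; RUNX2 stands out in E4.5-Ant library 2, ACAN and COL9A3 are uneven within E4.5-Ant, and LECT2 is at the dark end in every other tissue.

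Libraries 1 and 3 of E4.5-Ant both lay above all 9 libraries of the other tissues for 55 of the 57 genes, where 8.19% of the 13186 protein coding genes with a mean of at least 1 CPM did so. The rule used these libraries, so nothing is read from that count. Within E4.5-Ant, 45 of the 57 genes were higher in library 1 than in library 3, the median ratio was 1.13, and 4 genes differed by more than 1.5 times. The 2 genes whose E4.5-Ant libraries overlapped the others were ACAN and COL9A3, which encode components of cartilage matrix. ACAN stood at 1.16, 4.26 and 13.1 CPM in E4.5-Ant and at 0.969, 5.11 and 0.740 CPM in E4.5-Post, so its place among the 57 rested on library 3. COL9A3 stood at 9.80, 16 and 33.8 CPM in E4.5-Ant and at 5.11, 12.5 and 7.43 CPM in E4.5-Post.

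E4.5-Ant library 2 was not used by the rule, which makes it a further look at the same genes, although the libraries it is compared with were used. The study states that 1 E4.5-Ant sample failed quality control and was left out, without saying which, so values of library 2 are limited by its quality. It lay above all 9 libraries of the other tissues for 56 of the 57 genes, all but ACAN, against a share of 20% of the same 13186 genes. Long genes were raised in this library, and 5.16% of genes under 10 kb, 15.8% of those of 10 to 50 kb and 53.6% of those of 50 kb and longer lay above all 9, against 18 of 18, 25 of 26 and 13 of 13 members. Relative to the mean of libraries 1 and 3, the median of all protein coding genes with a mean of at least 1 CPM was 0.802 for genes under 10 kb, 0.921 for those of 10 to 50 kb and 1.22 for those of 50 kb and longer. The medians of the members were 0.923 for 18 genes, 1.24 for 26 genes and 2.57 for 13 genes.

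RUNX2, which is 214.8 kb long and encodes a transcription factor of bone formation, reached 276 CPM in library 2 against 23.9 and 22.8 CPM in libraries 1 and 3, a ratio of 11.8. PIEZO2, TRPC6, CHRM2 and FAM19A2, all longer than 50 kb, stood between 3.16 and 3.75 times the mean of libraries 1 and 3. Among the genes shorter than 20 kb, a limit chosen after this was seen, library 2 lay above all 9 libraries for 26 of 26 members, while 7.05% of all genes of that length did so. In edgeR, library 2 was also fitted as the only E4.5-Ant library, with changes given as log2 fold change (log2FC). The rule had used the libraries on the other side and library 2 has no spread of its own, so only effect sizes are given. The median log2FC of the members was 2.43 over E4.5-Post, 2.24 over E5.5 duct and 2.89 over E6.5 duct. Over all tested genes these medians were -0.05, -0.03 and -0.03. In the tests below, a gene is named as called at a false discovery rate (FDR) of at most 0.05 and a difference of at least 1.5 times in either direction.

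**Figure D2:**
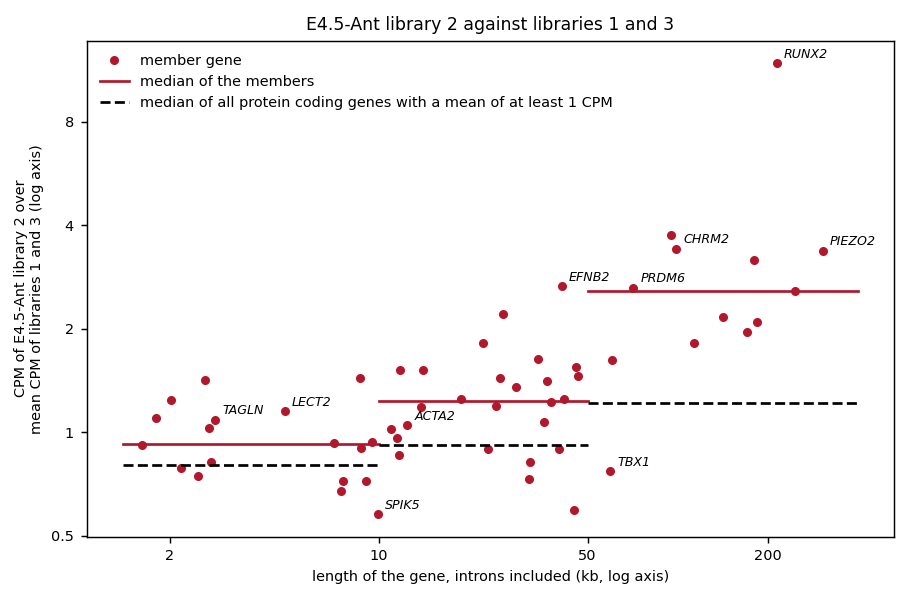
CPM of E4.5-Ant library 2 over the mean of libraries 1 and 3 for each of the 57 genes (points) against gene length with introns (both axes logarithmic). Red lines are the medians of the members and dashed lines those of all protein coding genes with a mean of at least 1 CPM, in genes under 10 kb (0.923 and 0.802), of 10 to 50 kb (1.24 and 0.921) and of 50 kb and longer (2.57 and 1.22).

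The largest group by role, 12 genes, comprised fibre and cytoskeletal proteins, and 4 of its members encode core proteins of smooth muscle contraction. ACTA2 and ACTG2, the smooth muscle actins, were both at their highest in E4.5-Ant. ACTA2 stood at 607, 574 and 487 CPM in E4.5-Ant, at 167, 157 and 159 CPM in E4.5-Post, at 198, 183 and 255 CPM in E5.5 duct and at 156, 165 and 156 CPM in E6.5 duct, which put the E4.5-Ant mean at 2.58 times that of E5.5 duct. Its E4.5-Ant libraries did not overlap any other, while E4.5-Post and E6.5 duct overlapped each other. ACTG2 stood at 124, 150 and 86.9 CPM in E4.5-Ant, at 5.89, 6.76 and 7.15 CPM in E4.5-Post, at 8.70, 10.3 and 12.9 CPM in E5.5 duct and at 22.1, 23.4 and 16 CPM in E6.5 duct. None of its tissues overlapped another. ACTG2 was higher in E5.5 duct than in E4.5-Post (log2FC = 0.67, SE 0.19, edgeR FDR = 0.00747) and rose from E5.5 to E6.5 duct (log2FC = 0.96, SE 0.17, edgeR FDR = 0.00103), the latter being the single called rise among the 57 genes between the duct stages. Without E5.5 duct library 3 the difference from E4.5-Post fell under the fold limit (log2FC = 0.53).

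TAGLN, an actin-binding protein of smooth muscle (GRCg6a, chromosome 24, 5236144-5238982), had the second highest ratio of the 57 genes. It stood at 111, 104 and 79.3 CPM in E4.5-Ant, at 10.4, 11.7 and 9.26 CPM in E4.5-Post, at 11.2, 9.62 and 11.8 CPM in E5.5 duct and at 9.23, 10.1 and 7.92 CPM in E6.5 duct. The E4.5-Ant mean was 8.78 times that of E5.5 duct, and the other 3 tissues overlapped one another with no call between them in edgeR (FDR = 0.80, 0.247 and 0.218). MYLK, the kinase that phosphorylates myosin light chain, stood at 262, 517 and 232 CPM in E4.5-Ant and between 94.6 and 117 CPM in the 9 other libraries, likewise with no call between these (edgeR FDR = 0.145, 0.684 and 0.364). Its value in library 2 belongs to a gene of 183.6 kb.

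NEBL and NEXN, which bind actin filaments, ANKRD1, a muscle ankyrin repeat protein, and the LIM domain proteins FHL1 and LMCD1 completed the muscle-related genes, beside MYH15, a myosin heavy chain. ANKRD1 stood at 9.87, 12.2 and 7.20 CPM in E4.5-Ant and between 0.682 and 1.43 CPM in the other libraries, a ratio of 6.84 to the next highest tissue. MYH15 stood at 71.5, 91.4 and 53.8 CPM in E4.5-Ant, at 22.9, 24.4 and 41.7 CPM in E4.5-Post, at 11, 16.6 and 10.7 CPM in E5.5 duct and at 3.81, 3.20 and 3.14 CPM in E6.5 duct. It therefore descended through the tissues without overlap, and it was lower in E5.5 duct than in E4.5-Post in edgeR (log2FC = -1.22, SE 0.22, FDR = 0.000309) and fell from E5.5 to E6.5 duct (log2FC = -1.90, SE 0.27, FDR = 0.000243).

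Within E4.5-Post, MYH15 was highest in library 3, and within E5.5 duct in library 2. NEXN was at 7.08, 7.58 and 13 CPM in E4.5-Post and at 9.31, 13 and 9.42 CPM in E5.5 duct, with the same libraries highest. The summed level of 21 skeletal muscle markers was likewise highest there, at 75.6, 88.0 and 138 CPM in E4.5-Post and at 89.1, 139 and 84.0 CPM in E5.5 duct, against 75.2 to 84.4 CPM in E4.5-Ant libraries 1 and 3 and 46.0 to 51.2 CPM in E6.5 duct. In every tissue at least 1 of these markers had at most 3 counts in each library, and in E6.5 duct 6 had. The 15 heart muscle markers outside the 57 were highest in the same libraries. They summed to 89.2, 104 and 152 CPM in E4.5-Post and to 109, 147 and 114 CPM in E5.5 duct. No skeletal muscle marker was among the 57 genes, and the part of skeletal or heart muscle in the levels of MYH15 and NEXN was not tested.

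The remaining members of this group were TPPP3, which promotes tubulin assembly, and KIF6, a kinesin motor. TPPP3 was lower in E5.5 duct than in E4.5-Post in edgeR (log2FC = -1.57, SE 0.24, FDR = 7.7e-05), with 11.9, 7.22 and 5.85 CPM in E4.5-Post against 3.36, 2.59 and 2.48 CPM. Of the 12 genes, 2 were called higher and 2 lower in E5.5 duct than in E4.5-Post, where 14.3% and 6.26% of all tested genes were. In E6.5 duct against E4.5-Post 1 was higher and 4 lower (16.5% and 8.78% of all tested genes), and in E6.5 against E5.5 duct 1 was higher and 4 lower (4.11% and 3.45%). TPPP3 and FHL1, both among the last 4, kept that call in 14 and 18 of 21 alternative fits.

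**Figure D3:**
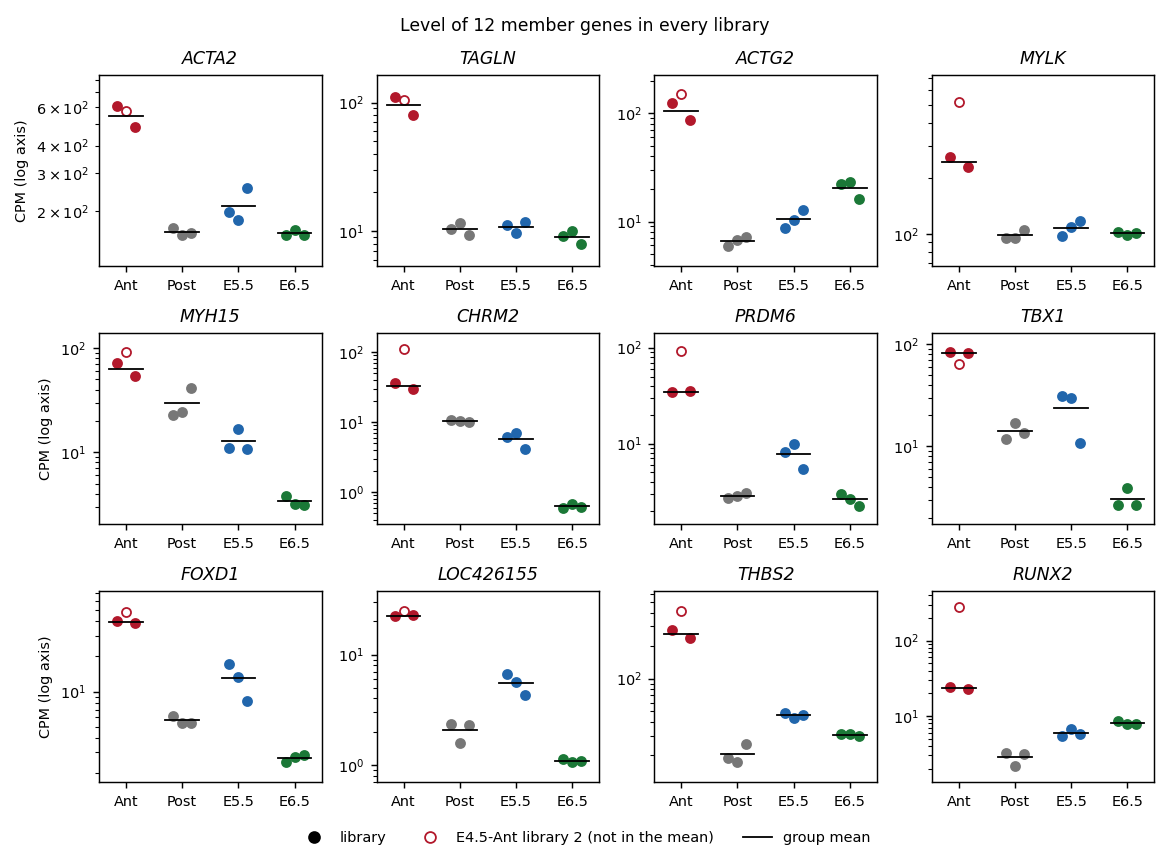
CPM (logarithmic axis) of 12 of the 57 genes in E4.5-Ant, E4.5-Post, E5.5 duct and E6.5 duct, with each library as a point, E4.5-Ant library 2 as an open circle and the mean of the other libraries as a line. TAGLN and MYLK lie close together across the other 3 tissues, ACTG2 and RUNX2 are lowest in E4.5-Post, and CHRM2, MYH15, TBX1, FOXD1 and LOC426155 are lowest in E6.5 duct.

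Of 20 genes in a list of smooth muscle and actin contractility, 6 were among the 57 (ACTA2, ACTG2, TAGLN, MYLK, PRDM6 and NEBL). The list was drawn up with earlier results of these data known. It also holds NEBL, PRDM6, CALD1, LMOD1 and TPM2, which the study names for E4.5-Ant from these same data. Its other 14 genes, from which the rule had thus taken the steepest, included 8 that E4.5-Ant held above E4.5-Post and 0 that it held below, where 7.7% and 3.05% of all tested genes were. They were CNN1 (log2FC = 3.55), PDLIM3 (1.67), FLNC (1.24), LMOD1 (1.02), CALD1 (0.98), SYNPO2 (0.90), TPM1 (0.77) and MYH11 (0.74). The comparison used the libraries of the rule and did not pair E4.5-Ant with E4.5-Post from the same embryos. These counts, and all counts of E4.5-Ant against other tissues in the lists below, are therefore a description. Against E5.5 duct, 7 of the 14 were higher in E4.5-Ant and 3 lower (5.22% and 7.8% of all tested genes), and against E6.5 duct 5 were higher and 3 lower (8.26% and 11.5%). SYNPO2, an actin-binding protein, moved the other way, from 50.1, 88.2 and 49.1 CPM in E4.5-Ant to 139, 125 and 135 CPM in E6.5 duct. PDLIM3, FLNC and MYH11 did not have their highest mean in E4.5-Ant either. In that order they had means of 6.98, 4.90 and 4.21 CPM there and of 8.85, 6.32 and 5.24 CPM in E6.5 duct. LDB3 of the same list was lower in E4.5-Ant than in E5.5 duct (log2FC = -1.85) and E6.5 duct (log2FC = -2.83). MYOCD, the coactivator that drives smooth muscle genes, was lower in E4.5-Ant than in both ducts, at 5.22, 5.56 and 4.94 CPM against 6.96 to 9.73 CPM. DES, an intermediate filament protein of muscle, stood at 30.4, 25.7 and 24.5 CPM in E4.5-Ant and at 22.4, 26.0 and 22.7 CPM in E4.5-Post, so that these overlapped.

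Receptors, channels and a gap junction protein made up 9 of the 57 genes. CHRM2, the muscarinic acetylcholine receptor M2, stood at 36.0, 112 and 29.5 CPM in E4.5-Ant, at 10.6, 10.2 and 9.86 CPM in E4.5-Post, at 6.05, 6.86 and 4.16 CPM in E5.5 duct and at 0.583, 0.678 and 0.603 CPM in E6.5 duct. It showed the largest fall of the 57 genes between the duct stages, without overlap (log2FC = -3.18, SE 0.23, edgeR FDR = 1.79e-06), and also against E4.5-Post (log2FC = -4.03, SE 0.22, edgeR FDR = 2.1e-09). The E4.5-Ant mean of CHRM2 was 52.7 times its E6.5 duct mean.

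TRPC6, a cation channel that lets calcium into smooth muscle cells, stood at 31.4, 112 and 28.2 CPM in E4.5-Ant and between 4.24 and 6.17 CPM in all other libraries. No comparison among the other tissues was called for it in edgeR (FDR = 0.679, 0.911 and 0.656).

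KCNMB1, the β subunit of the calcium-activated potassium channel of smooth muscle, stood at 29.0, 24.7 and 24.3 CPM in E4.5-Ant, at 6.49, 5.47 and 5.49 CPM in E4.5-Post, at 12.1, 10.2 and 13.2 CPM in E5.5 duct and at 13.7, 14.3 and 9.53 CPM in E6.5 duct. It exceeded E4.5-Post in both ducts (log2FC = 1.02 and 1.11, edgeR FDR = 6.11e-05 and 2.15e-05), and the ducts overlapped each other. GPR37, an orphan receptor, was also higher in E5.5 duct than in E4.5-Post (log2FC = 0.81, SE 0.15, edgeR FDR = 0.000299). PIEZO2, a mechanically gated channel, stood at 242, 779 and 220 CPM in E4.5-Ant, at 64.9 to 68.1 CPM in E4.5-Post, and at 85.6 to 103 CPM in the ducts, and its difference between ducts and E4.5-Post was below the fold limit (log2FC = 0.47 and 0.49). MC5R, a melanocortin receptor, and GJA3, a connexin, were not called in any of the 3 comparisons without E4.5-Ant.

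Transcription regulators were 8 of the 57 genes, and 7 of them were called in E6.5 duct against E4.5-Post, 2 higher and 5 lower, where 16.5% of all tested genes were higher and 8.78% lower. PRDM6, known in the mouse as a repressor of transcription in smooth muscle cells, stood at 34.2, 91.7 and 35.5 CPM in E4.5-Ant, at 2.68, 2.86 and 3.06 CPM in E4.5-Post, at 8.12, 9.96 and 5.48 CPM in E5.5 duct and at 2.95, 2.67 and 2.25 CPM in E6.5 duct. It was higher in E5.5 duct than in E4.5-Post (log2FC = 1.45, SE 0.19, edgeR FDR = 1.97e-05) and fell again to E6.5 duct (log2FC = -1.57, SE 0.19, edgeR FDR = 9.34e-05), which overlapped E4.5-Post. TBX1, a T-box factor of the pharyngeal region, stood at 83.9, 63.7 and 81.3 CPM in E4.5-Ant, at 11.8, 17 and 13.5 CPM in E4.5-Post, at 31.1, 29.4 and 10.7 CPM in E5.5 duct and at 2.68, 3.88 and 2.65 CPM in E6.5 duct. Library 3 of E5.5 duct lay below all of E4.5-Post. The higher level in E5.5 duct than in E4.5-Post (log2FC = 0.75, SE 0.28, edgeR FDR = 0.036) lost its call without E5.5 duct library 1 (FDR = 0.168) or 2 (FDR = 0.144) and without E4.5-Post library 1 (FDR = 0.117) or 3 (FDR = 0.0858). It was also lost with voom (FDR = 0.115), with DESeq2 (FDR = 0.106), with all 12 libraries (FDR = 0.0754) and with the 9 libraries outside E4.5-Ant (FDR = 0.0501). The fall from E5.5 to E6.5 duct was without overlap (log2FC = -2.95, SE 0.34, edgeR FDR = 5.82e-05).

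FOXD1, a forkhead factor that marks kidney stroma in the mouse, and LOC426155 lie next to each other on chromosome Z, on the same strand (GRCg6a, 24754425-24756452 and 24758955-24760759), with 2.5 kb between them. The tables give LOC426155 as protein coding, while the newer RefSeq annotation of GRCg7b gives it as a lncRNA. FOXD1 stood at 39.9, 48.5 and 38.5 CPM in E4.5-Ant, at 6.11, 5.40 and 5.42 CPM in E4.5-Post, at 17.3, 13.3 and 8.25 CPM in E5.5 duct and at 2.50, 2.75 and 2.86 CPM in E6.5 duct. LOC426155 stood at 22.5, 25 and 22.7 CPM in E4.5-Ant, at 2.35, 1.57 and 2.29 CPM in E4.5-Post, at 6.69, 5.63 and 4.35 CPM in E5.5 duct and at 1.13, 1.05 and 1.09 CPM in E6.5 duct. For both genes the order was E4.5-Ant, E5.5 duct, E4.5-Post, E6.5 duct, without overlap between any tissues.

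FOXD1 was higher in E5.5 duct than in E4.5-Post (log2FC = 1.20, SE 0.20, edgeR FDR = 0.000158) and fell to E6.5 duct (log2FC = -2.26, SE 0.22, edgeR FDR = 1.48e-05). For LOC426155 these changes were 1.42 (SE 0.18, edgeR FDR = 1.3e-05) and -2.34 (SE 0.20, edgeR FDR = 6e-06). The next gene on that side, the lncRNA LOC107051956, lies 71.0 kb beyond LOC426155 on the same strand, with a mean of 8.58 CPM in E4.5-Ant against 0.203, 0.487 and 0.0873 CPM in E4.5-Post, E5.5 duct and E6.5 duct. On the other side, the lncRNA LOC101750669 ends 69 bases before FOXD1, with means of 6.30, 5.28, 7.28 and 5.32 CPM in E4.5-Ant, E4.5-Post, E5.5 duct and E6.5 duct.

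Library 3 of E5.5 duct was low in several of these genes. Relative to the mean of libraries 1 and 2 it stood at 0.354 for TBX1, 0.539 for FOXD1, 0.606 for PRDM6 and 0.705 for LOC426155, while the median of the 57 genes was 0.942. PAX1, a marker of the sclerotome that is not among the 57 genes, was also low in that library, with 18.8, 20.5 and 20.9 CPM in E4.5-Ant, 2.83, 6.25 and 3.45 CPM in E4.5-Post, 20.4, 19.2 and 5.81 CPM in E5.5 duct and 0.72, 0.188 and 0.362 CPM in E6.5 duct. PAX9 of the same list was low there too (0.499), whereas COL9A1 and COL9A2 were highest in library 3 of E5.5 duct. The 16 sclerotome and cartilage genes outside the 57 summed to 878, 971 and 873 CPM in E5.5 duct, so library 3 lay close to library 1. Their sums were 806 and 964 CPM in E4.5-Ant libraries 1 and 3, 547 to 601 CPM in E4.5-Post and 1049 to 1120 CPM in E6.5 duct. The part of sclerotome cells in these values was not tested.

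RUNX2 stood at 3.21, 2.18 and 3.13 CPM in E4.5-Post, at 5.37, 6.65 and 5.84 CPM in E5.5 duct and at 8.68, 7.91 and 7.72 CPM in E6.5 duct, and was higher in E6.5 duct than in E4.5-Post (log2FC = 1.52, SE 0.14, edgeR FDR = 6.85e-07). Its differences of both ducts from E4.5-Post lost their call when E4.5-Ant library 2 entered the fit (FDR = 0.376 at E5.5 and 0.19 at E6.5). HOXC4, a homeobox gene of anterior identity, stood at 7.61, 6.74 and 7.07 CPM in E4.5-Ant and at 1.83, 1.25 and 1.34 CPM in E4.5-Post, and was higher in E5.5 duct than in the latter (log2FC = 1.24, SE 0.19, edgeR FDR = 8.3e-05). Its neighbour HOXC5, 19.0 kb away, had means of 17.8 CPM in E4.5-Ant, 4.54 CPM in E4.5-Post, 9.69 CPM in E5.5 duct and 5.67 CPM in E6.5 duct, and its ratio of 1.83 kept it outside the rule.

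HEY2, an effector of Notch signalling, stood at 15.8, 13.2 and 9.96 CPM in E4.5-Ant, at 6.49, 7.22 and 5.56 CPM in E4.5-Post, and at 1.44 to 2.49 CPM in the ducts. It was lower in E5.5 duct than in E4.5-Post (log2FC = -1.68, SE 0.23, edgeR FDR = 3.02e-05), and the ducts overlapped each other. VGLL3, a cofactor of TEAD factors, was lower in E6.5 than in E5.5 duct (log2FC = -1.37, SE 0.19, edgeR FDR = 0.000242). TBX20, a T-box factor of the heart, was lower in E6.5 duct than in E4.5-Post (log2FC = -0.84, SE 0.23, edgeR FDR = 0.00561), and it was the single member of a list of heart muscle markers.

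Matrix and cell surface proteoglycan genes were 8 of the 57. THBS2, a matricellular thrombospondin, stood at 279, 418 and 233 CPM in E4.5-Ant, at 18.5, 17 and 25.3 CPM in E4.5-Post, at 48.1, 43.8 and 45.9 CPM in E5.5 duct and at 31.3, 30.9 and 29.8 CPM in E6.5 duct. Its tissues did not overlap, the E4.5-Ant mean was 5.57 times that of E5.5 duct, and it was higher in E5.5 duct than in E4.5-Post (log2FC = 1.17, SE 0.11, edgeR FDR = 1.1e-06). FBLN5, which takes part in building elastic fibres, stood at 108, 127 and 95.1 CPM in E4.5-Ant, at 10.8, 15.7 and 15.3 CPM in E4.5-Post and at 15.4 to 23.8 CPM in the ducts. Its excess in E5.5 duct over E4.5-Post (log2FC = 0.62, SE 0.14, edgeR FDR = 0.00144) fell under the fold limit without E4.5-Post library 1 (log2FC = 0.47) or without E5.5 duct library 1 (log2FC = 0.54).

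Of 27 matricellular genes found in the tables, THBS2 and FBLN5 were among the 57. Of the 22 others that were tested, E4.5-Ant exceeded E4.5-Post in 10, E5.5 duct in 7 and E6.5 duct in 6, and lay below them in 0, 5 and 9. Of all tested genes, 7.7%, 5.22% and 8.26% were higher and 3.05%, 7.8% and 11.5% lower in these comparisons. As for the smooth muscle list, these counts are a description. CTGF, of the CCN family, lay just under the fold limit. ADAMTS2, which trims procollagen, was higher in E5.5 duct than in E4.5-Post (log2FC = 0.93, SE 0.17, edgeR FDR = 0.000397), whereas CSPG4, a proteoglycan of pericytes, and GPC3, a glypican, were not called among the other tissues. CNMD, which inhibits vessel growth in cartilage, stood at 78.6, 73.8 and 93.7 CPM in E4.5-Ant and was lower in E6.5 than in E5.5 duct (log2FC = -0.92, SE 0.15, edgeR FDR = 0.00073). COL9A3 and ACAN were lower in E6.5 duct than in E4.5-Post (log2FC = -1.89 and -2.75, edgeR FDR = 0.0017 and 0.0305). ACAN lost this call with voom (FDR = 0.17), without E4.5-Post library 2 (FDR = 0.294) and without each of E6.5 duct libraries 1, 2 and 3 (FDR = 0.0747, 0.0782 and 0.0683).

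ACAN, COL9A3 and CNMD were the members of the list of 19 sclerotome and cartilage genes. Relative to E4.5-Post, 5 of the other 14 tested were higher in E4.5-Ant (PAX1, NKX3-2, PAX9, COL11A1 and COL2A1) and 1 lower (UNCX), where 7.7% and 3.05% of all tested genes were. COL9A1 and COL9A2, the partners of COL9A3 in collagen IX, were also higher in E4.5-Ant library 3 than in library 1, with 27.9 against 5.96 CPM and 19.9 against 8.57 CPM, and NKX3-2 stood at 6.82 against 2.04 CPM. The counts are a description, as for the lists above. The part of cartilage precursors in the uneven values of ACAN and COL9A3 was not tested.

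Secreted factors, ligands and adhesion proteins were 9 of the 57 genes. LECT2 is known in mammals as a protein secreted by liver that attracts leukocytes. It had the largest ratio of all, at 5.60, 7.10 and 6.74 CPM in E4.5-Ant against at most 0.292 CPM in any other library. It had 0 to 3 counts in the libraries of E4.5-Post and of E6.5 duct, so that E4.5-Ant was at least 57-fold higher than E4.5-Post and at least 55-fold higher than E6.5 duct, with 3 counts per library as the floor, and it was 33.3 times as high as E5.5 duct. The summed level of other liver genes overlapped between E4.5-Ant libraries 1 and 3 and both ducts and was lower in E4.5-Post. In E4.5-Ant library 2 the liver genes, LECT2 included, summed to 557 CPM, below every E4.5-Post library. The 18 liver genes found beside LECT2 summed to 842 and 875 CPM in E4.5-Ant libraries 1 and 3, 591 to 752 CPM in E4.5-Post, 812 to 913 CPM in E5.5 duct and 752 to 1094 CPM in E6.5 duct. Leukocyte genes are given below, with RAC2. The part of liver cells or of leukocytes in the LECT2 level was not tested.

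WNT2B, a WNT ligand, stood at 7.23, 6.92 and 7.20 CPM in E4.5-Ant, at 1.12, 0.822 and 1.09 CPM in E4.5-Post, at 2.04, 1.74 and 2.52 CPM in E5.5 duct and at 2.71, 3.54 and 2.33 CPM in E6.5 duct. It exceeded E4.5-Post in both ducts (log2FC = 1.04 and 1.5, edgeR FDR = 0.000968 and 2.65e-05). BDNF, a neurotrophin, also exceeded E4.5-Post in both ducts (log2FC = 1.04 and 0.82, edgeR FDR = 1.41e-05 and 0.000109), with 19.1, 28.9 and 18.1 CPM in E4.5-Ant. WNT2B was the single member among 40 WNT signalling genes found, and BDNF was in none of the lists.

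CBLN1, an organiser of synapses, stood at 29.0, 21.9 and 24.5 CPM in E4.5-Ant, at 12.3, 9.94 and 10.6 CPM in E4.5-Post, at 3.46, 3 and 2.92 CPM in E5.5 duct and at 1.89, 2.26 and 1.53 CPM in E6.5 duct. Its tissues did not overlap, and its lower level in E5.5 duct relative to E4.5-Post was the largest difference called in that direction among the 57 genes (log2FC = -1.81, SE 0.14, edgeR FDR = 1.27e-07). A lncRNA 12.6 kb beyond it on the same strand, LOC107054282, followed the same order, with means of 7.19, 2.97, 1.32 and 0.884 CPM. SEMA3G, a guidance cue for vessels and axons, lay below E4.5-Post in both ducts (log2FC = -1.10 and -1.03, edgeR FDR = 6.78e-06 and 1.01e-05). EFNB2, the ephrin of arterial endothelium, was lower in E6.5 duct than in E4.5-Post (log2FC = -0.62, SE 0.09, edgeR FDR = 3.82e-05), which fell under the fold limit without E4.5-Post library 2 (log2FC = -0.58) or E6.5 duct library 2 (log2FC = -0.57). With all 12 libraries in the fit this call was also lost (log2FC = -0.65, edgeR FDR = 0.133). The 20 endothelial markers found in the tables held no member, but their summed level was highest in E4.5-Ant. It was 1430 to 1596 CPM in E4.5-Ant libraries 1 and 3 and 1410 CPM in library 2. The other tissues had 1163 to 1270 CPM (E4.5-Post), 1041 to 1142 CPM (E5.5 duct) and 959 to 1011 CPM (E6.5 duct). The part of endothelium in the levels of SEMA3G and EFNB2 was not tested.

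FAM19A2, a chemokine-like protein, stood at 138, 400 and 115 CPM in E4.5-Ant and between 23.8 and 46.4 CPM elsewhere. CYTL1, a cytokine-like protein, fell from E5.5 to E6.5 duct (log2FC = -0.74, SE 0.20, edgeR FDR = 0.014), a call lost without E5.5 duct library 1 (FDR = 0.0635) and without E6.5 duct library 1 (FDR = 0.0542) or 3 (FDR = 0.0557). AMIGO2, a cell adhesion protein, was not called in any of the 3 comparisons.

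The protease inhibitors SPIK5, A2M and PI15 were among the 57 genes. SPIK5, of the Kazal family, had the highest ratio of these (7.95) but was uneven in E4.5-Ant, at 36.9, 16.9 and 21.6 CPM against 1.57 to 4.01 CPM elsewhere. PI15 stood at 101, 175 and 92.0 CPM in E4.5-Ant, at 25.4, 25.1 and 21.1 CPM in E4.5-Post, at 31.2, 31.6 and 33.3 CPM in E5.5 duct and at 17.6, 13.9 and 15.4 CPM in E6.5 duct. It fell from E5.5 to E6.5 duct (log2FC = -1.02, SE 0.09, edgeR FDR = 9.36e-06).

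RARRES1, a retinoic acid responsive membrane protein, led the remaining genes in level, with 237, 148 and 203 CPM in E4.5-Ant, 118, 94.0 and 84.8 CPM in E4.5-Post and 40.0 to 54.1 CPM in the ducts, and it lay below E4.5-Post in both ducts (log2FC = -1.0 and -1.16, edgeR FDR = 5.84e-06 and 1.09e-06). GALNT16, which starts O-linked glycosylation, stood at 103, 152 and 83.8 CPM in E4.5-Ant and at 14.9 to 27.4 CPM elsewhere. ENPP3, an ectonucleotidase, stood at 13.9, 13.3 and 10.9 CPM against 2.65 to 3.78 CPM. NPC2, which carries cholesterol out of lysosomes, and SYNDIG1L lie on chromosome 5 with only ISCA2 between them. ISCA2 had means of 42.1 to 46.7 CPM in the 4 tissues. SYNDIG1L exceeded E4.5-Post in both ducts (log2FC = 0.77 and 0.78, edgeR FDR = 0.00789 and 0.00734), whereas NPC2 was not called.

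SIAH3, of a ubiquitin ligase family, was lower in E6.5 than in E5.5 duct (log2FC = -1.29, SE 0.17, edgeR FDR = 0.000126). RAC2, a small GTPase of blood cells, stood at 7.47, 4.97 and 6.28 CPM in E4.5-Ant against 1.81 to 3.21 CPM elsewhere, and was the single member of the list of leukocyte markers. The other 18 leukocyte genes found summed to 278 and 245 CPM in E4.5-Ant libraries 1 and 3, 185 to 203 CPM in E4.5-Post, 141 to 181 CPM in E5.5 duct and 166 to 180 CPM in E6.5 duct, and E4.5-Ant exceeded E4.5-Post in 9 of the 16 tested and lay below it in 1 (7.7% and 3.05% of all tested genes). Among the 9 was CSF1R at 39.2, 35.7 and 36.1 CPM against 20.1 to 21.0 CPM. These list counts are a description, as for the lists above, and whether leukocytes carried the RAC2 level was not tested.

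The other 3 tissues were compared with one another for all 57 genes, in a fit whose filter and spread also used E4.5-Ant libraries 1 and 3. LECT2 passed the filter on low counts only through E4.5-Ant, and with the 9 libraries of the other tissues alone 56 genes were tested and 29, 32 and 20 called in the comparisons that follow. E5.5 duct differed from E4.5-Post in 28 of the 57 genes, where 20.6% of all 16603 tested genes did. Of the 28, 19 were higher and 9 lower, against 14.3% and 6.26% of all tested genes. The median log2FC was 0.25 for the 57 genes and 0.01 for all tested genes. The largest called differences were those of PRDM6, LOC426155 and HOXC4 among the higher genes and those of CBLN1, HEY2 and TPPP3 among the lower ones. E6.5 duct differed from E4.5-Post in 32 genes, where 25.3% of all tested genes did. Of the 32, 10 were higher and 22 lower, against 16.5% and 8.78% of all tested genes, with a median log2FC of -0.24 against 0.01. ACTG2, RUNX2 and WNT2B led the higher genes here, and CHRM2, MYH15 and ACAN the lower ones. The call of ACAN was lost under several alternatives, as given above. These comparisons share the E4.5-Post libraries.

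From E5.5 to E6.5 duct, 19 genes were called against 7.56% of all tested genes. Of these 18 fell and 1 rose, where 3.45% of all tested genes fell and 4.11% rose, and the median log2FC was -0.35 for the 57 genes and 0.01 for all tested genes. The largest falls were those of CHRM2, TBX1 and LOC426155, followed by FOXD1, MYH15 and PRDM6. In 29 of the 57 genes all E6.5 duct libraries lay below all E5.5 duct libraries, and in 3 they lay above, against 21.8% and 21.1% of the 13193 protein coding genes with a mean of at least 1 CPM. The rule held both ducts below E4.5-Ant but set no order between them.

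**Figure D4:**
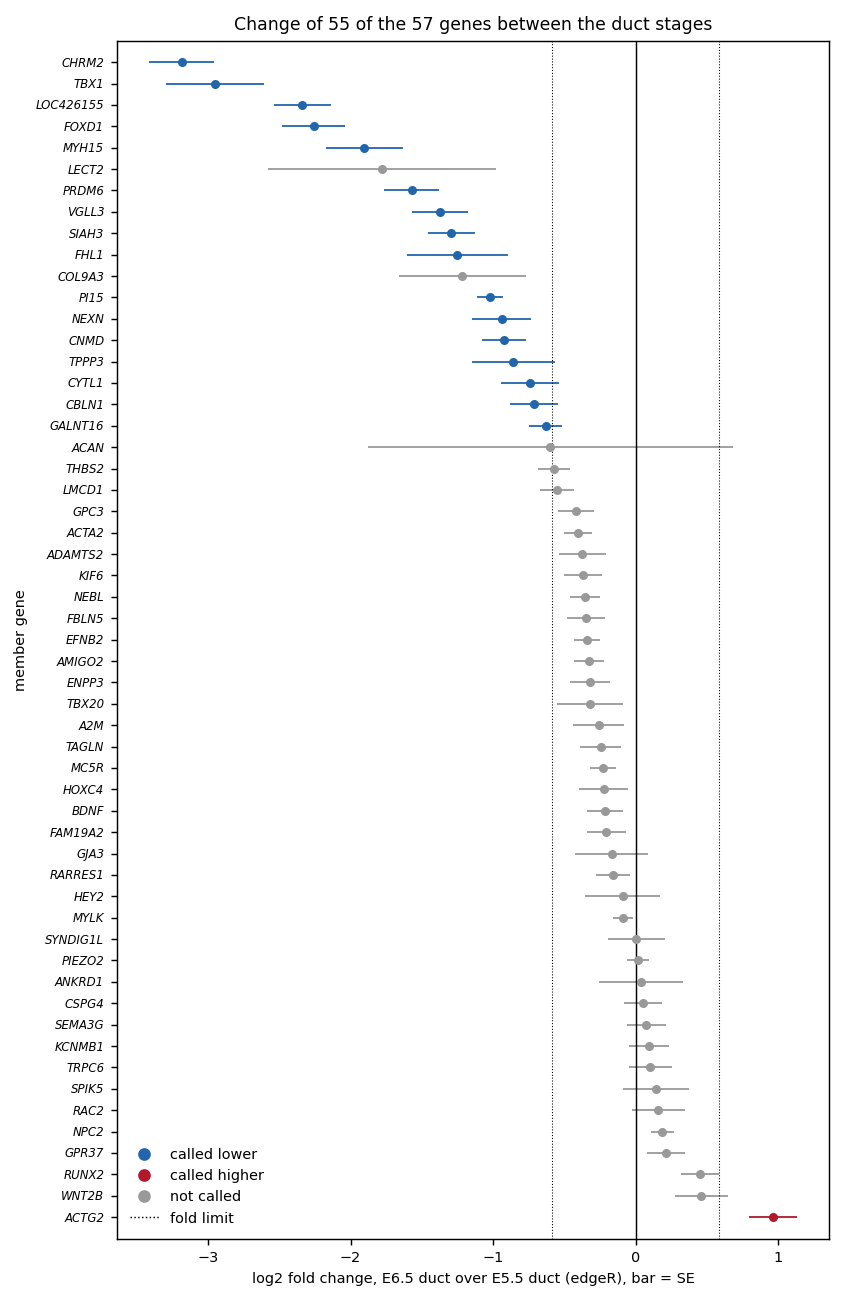
Log2 fold change from E5.5 to E6.5 duct of 55 of the 57 genes (points) with its standard error (bars), in order of size, with 3 libraries per stage. The 16 genes called lower that are shown (blue) run from CHRM2 at -3.18 to GALNT16 at -0.63, and ACTG2 at 0.96 is called higher (red). Dotted lines mark the fold limit.

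By role, the counts of called genes are set beside the shares of all tested genes. They were not compared with one another by a test, since the groups were formed by function after the values were known. In E5.5 duct against E4.5-Post, 14.3% of all tested genes were higher and 6.26% lower. Here 5 of the 8 transcription regulators were higher and 1 lower, 2 of the 9 receptor, channel and junction genes were higher and 3 lower, and 3 of the 8 matrix genes were higher and 0 lower. Of the 9 secreted and adhesion genes 3 were higher and 2 lower, of the 3 protease inhibitors 2 and 0, and of the 8 remaining genes 2 and 1. In E6.5 duct against E4.5-Post, 16.5% of all tested genes were higher and 8.78% lower. The numbers higher and lower were 2 and 5 for transcription regulators, 2 and 3 for receptors, channels and junctions, 1 and 3 for matrix genes, 2 and 3 for secreted and adhesion genes, 1 and 1 for protease inhibitors and 1 and 3 for the remaining genes. In groups this small several counts lie near these shares, and nothing is read from them by role.

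The 57 genes lay on 20 chromosomes by the names of the RefSeq annotation. Chromosome 1 held 13 of them, where it held 1494 of the 11364 genes with a mean of at least 5 CPM in E4.5-Ant, and chromosome 13 held 5, where it held 235 of those genes. FOXD1 and LOC426155 were the single pair of members with no other gene between them.

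Of the 33 lists of marker genes and gene families, 15 held a member, and 32 of the 57 genes were in no list. No member came from the lists for mesonephric nephron, Wolffian duct, coelomic epithelium, gonad, germ cells, Müllerian duct specification, neural crest and neurons, or red blood cells. Since members were 0.326% of all protein coding genes, lists this short can readily hold none, and nothing is read from it. The HOX genes of groups 6 to 13, which mark posterior positions, held no member either, and E4.5-Ant lay below E4.5-Post in 11 of their 20 tested genes and above it in 0 (3.05% and 7.7% of all tested genes). Their summed level was 237 and 322 CPM in E4.5-Ant libraries 1 and 3 and 565 to 571 CPM in E4.5-Post. The counts of these HOX genes are likewise a description. For E4.5-Ant, 16 genes named by the study were looked up, of which LMOD1 and TPM2 came from its supplement only. Other genes that the supplement lists for modules of this tissue were not counted. Of the 16, 10 were among the 57, and the others were CALD1, LMOD1, LRIG3, PRUNE2, TPM2 and ADGRD2, with ratios of 1.81, 1.78, 1.56, 1.37, 1.18 and 1.11 to the next highest tissue.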

How the data were processed

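The authors prepared stranded mRNA libraries from 300 ng of total RNA, sequenced them in a single lane, aligned reads with STAR and deposited raw counts per gene, made with featureCounts 1.6.2 on GRCg6a over whole genes, introns included, on the gene strand. Duplicates were not dropped. Libraries were grouped by tissue from titles and column names, which do not tie libraries to embryos, and p-values measure the spread between pools. CPM were computed from the protein coding counts unless stated here. For the numbers of members and of background genes with E4.5-Ant library 2 above all 9 libraries, the total was all counts but those of rRNA genes. The 13186 background genes were chosen on that total. The shares by length and the overlap of the ducts used 13193 genes on the protein coding total. The 3 comparisons without E4.5-Ant were tested with the quasi-likelihood test of edgeR 4.0.16 in R 4.3.3 (TMM, filterByExpr, Benjamini-Hochberg over all tested genes, SE from the F statistic). The same fit tested the E4.5-Ant libraries used by the rule against each other tissue. Calls from those tests are given only for list genes outside the members and as shares of all tested genes. E4.5-Ant library 2 was left out of this fit, since the study used only 2 E4.5-Ant libraries. Library 2 alone was fitted against each tissue for effect sizes. limma 3.58.1 (voom) and DESeq2 1.42.0 were alternatives, and the tests were tried on simulated counts. Tables and figures used Python 3.11.15, pandas 2.3.3 and matplotlib 3.10.9. Coordinates are those of GRCg6a, and chromosome names came from matching symbols with RefSeq GRCg7b. The members and lists were chosen with earlier results of these data known. Genes were planned to be named by ratio to the next tissue (15), level (8), up to 4 per list, the 3 largest rises and falls per comparison, the limits of the rule and mention in the study. Beyond these criteria, further members were named with their role groups. No sequences were used here. A few genes are not reported here by name, although they are included in all counts and medians.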

Additional observations from a re-analysis of the deposited data

Results flagged for a closer look

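Non-coding genes were outside the rule, and 5 lncRNAs met its limits in E4.5-Ant on the same scale. Their mean levels in E4.5-Ant were 17.7 CPM for LOC101751026, 7.19 CPM for LOC107054282, 28.8 CPM for LOC112530029, 7.17 CPM for LOC101748767 and 8.58 CPM for LOC107051956, against 3.29, 2.97, 6.26, 1.27 and 0.203 CPM in E4.5-Post. The limits themselves required this excess over E4.5-Post, so nothing is read from it. The study states that it found no lncRNA enriched only at E4.5, under criteria of its own that were not applied here. LOC107051956 had the largest ratio to the next highest tissue (17.6) and, like its neighbours FOXD1 and LOC426155, fell from E5.5 to E6.5 duct (log2FC = -2.43, SE 0.42, edgeR FDR = 0.000951). It stood at 0.517, 0.614 and 0.329 CPM in E5.5 duct and at 0.0686, 0.113 and 0.0804 CPM in E6.5 duct. In E6.5 duct 3 counts per library correspond to a mean of 0.112 CPM, so the size of this fall rests on very few counts. LOC101751026 and LOC101748767 are 60.9 kb and 111.7 kb long and stood at 65.2 and 38.0 CPM in E4.5-Ant library 2, above the 16.6 to 18.8 CPM and 6.90 to 7.44 CPM of libraries 1 and 3.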

How the results depend on the processing

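The number of genes that met the rule was 57 and stayed at 57 with TMM-scaled CPM. It was 153 with all 12 libraries and rRNA genes left out (55 shared with the 57), 178 at a fold limit of 1.5, 23 at a fold limit of 3, 110 at a limit of 1 CPM and 44 at 10 CPM, and 55 to 68 when a library was left out. Calls numbered 28, 32 and 19 for the comparisons of E4.5-Post with E5.5 duct, of E4.5-Post with E6.5 duct and of the ducts, and ranged from 24 to 29, from 29 to 32 and from 17 to 20 over the other tools, scalings, filters and library sets, and from 23 to 30, from 28 to 32 and from 16 to 21 when a library was left out. No called gene changed direction, and 18 of the 57 genes lost a call under at least 1 of these alternatives. With rRNA genes in its total, E4.5-Ant library 2 lay above all 9 other libraries for 48 genes, and leaving out 1 of those libraries gave 56 to 57. Restricted to genes under 20 kb, chosen after seeing the data, that count was 26 of 26, fewer because fewer genes were counted. The labels give no shared replicate numbers, but the column names carry numbers 1 to 3. With these as a replicate block, chosen after seeing the data, 28, 32 and 20 genes were called. Among the 9 libraries outside E4.5-Ant, deviations of same-numbered libraries from their tissue means correlated between -0.0937 and 0.0705 over 9 pairs. These pairs joined tissues of different embryos. A pairing of E4.5-Ant with E4.5-Post libraries, which came from the same embryos, was not checked. With the 9 libraries outside E4.5-Ant, also chosen after seeing the data, 29, 32 and 20 genes were called.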
